A study of Mus musculus with 6 samples.

Results

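The 10 genes studied belong to the YAP/TAZ and TEAD system and were followed in C2C12 cells, a mouse myoblast line from skeletal muscle whose cells fuse into myotubes when serum is changed. They were chosen by name as the rows Yap1, Wwtr1, Tead1, Tead2, Tead3, Tead4, Ccn1, Ccn2, Ankrd1 and Amotl2 of the deposited count table: 10 of its 43074 gene symbols, and all 10 passed the filter on low counts that left 17433 genes for testing. All libraries carry the genotype label WT, and the 3 groups were untreated cells at day 0, after growth in medium with 10% fetal bovine serum; cells kept to day 4 in differentiation medium with 5% horse serum and DMSO, the vehicle; and cells kept to day 4 in the same medium with 1 mM 4-phenylbutyric acid (4-PBA, known both as a chaperone-like compound and as a histone deacetylase inhibitor). Each group had 2 libraries of total RNA and all came from this 1 cell line. Nothing in the labels says that the replicates were separate cultures, so the p-values measure only the spread between these libraries, which may be technical. The day 4 groups differ from day 0 in serum and in the DMSO or 4-PBA added as well as in time. The time, the medium and the addition cannot be told apart in comparisons with day 0.

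YAP (from Yap1) and TAZ (from Wwtr1) are transcriptional coactivators with no DNA-binding domain of their own. In the Hippo pathway, MST kinases activate LATS kinases, which phosphorylate YAP and TAZ and keep them in the cytoplasm; unphosphorylated, they enter the nucleus and bind TEAD factors, which recognise the MCAT element of muscle genes. Ccn1 and Ccn2 (secreted matricellular proteins, formerly Cyr61 and Ctgf), Ankrd1 (an ankyrin repeat protein of the sarcomere and nucleus) and Amotl2 (an angiomotin that binds YAP at cell junctions) are widely used as readouts of YAP/TAZ and TEAD. In muscle, YAP is known for promoting myoblast growth, and TEAD factors for activating genes of differentiated muscle. Messenger RNA levels do not report the phosphorylation or the place of YAP and TAZ in the cell.

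The sequence searched for in the promoters of these genes was the TEAD core GGAATG, which reads CATTCC on the other strand. RefSeq promoter windows (GRCm38.p6, 250 bases before to 50 bases after a transcription start; the counts were made on GRCm39 per the submitters' processing notes) matched 7 of the 10 genes by symbol, with 10 windows in all. Tead1, Tead4 and Ccn2 had no entry. The core was present on either strand in 6 of these 7 genes (Yap1, Wwtr1, Tead3, Ccn1, Ankrd1 and Amotl2), and was not in the Tead2 window; 16.6% of the 27025 genes with a window, and 14.7% of all 32851 windows, held it. The longer MCAT element AGGAATG, which reads CATTCCT on the other strand and contains the core, was in the same 6 genes against 6.15% of all genes with a window. This longer form was searched after the core matches had been read. The 30 bases around a core in each gene are shown 5′ to 3′ on the gene's strand, with each core in capitals, because they show how alike these sites are beyond the core.
Yap1, chr9:8004720-8004749, minus strand: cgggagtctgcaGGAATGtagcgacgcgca
Wwtr1, chr3:57576029-57576058, minus strand: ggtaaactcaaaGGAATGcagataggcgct
Tead3 upstream start, chr17:28350970-28350999, minus strand: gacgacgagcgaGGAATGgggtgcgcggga
Tead3 downstream start, chr17:28350706-28350735, minus strand: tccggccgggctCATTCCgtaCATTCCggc
Ccn1, chr3:145650071-145650100, minus strand: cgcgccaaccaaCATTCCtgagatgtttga
Ankrd1 distal site, chr19:36120037-36120066, minus strand: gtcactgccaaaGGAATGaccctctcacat
Ankrd1 proximal site, chr19:36119950-36119979, minus strand: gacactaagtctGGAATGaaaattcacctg
Amotl2, chr9:102717727-102717756, plus strand: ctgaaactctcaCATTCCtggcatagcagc

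The cores began 141 bases before the start in Yap1, 136 before the first start of Wwtr1, 103 in Ccn1, 65 in Amotl2, and 210 and 123 in Ankrd1. Tead3 had 4 cores over its start sites, of which 1, at 182 bases before the upstream start, was part of the longer element; 2 stood side by side before the second start. In all, 10 distinct cores were found and 6 of them lay in the longer element. The 250 bases before the Ccn1 start (GRCm38.p6, chr3:145649986-145650235, minus strand) are given whole, with the core in capitals, as the window of a classical target.
Ccn1: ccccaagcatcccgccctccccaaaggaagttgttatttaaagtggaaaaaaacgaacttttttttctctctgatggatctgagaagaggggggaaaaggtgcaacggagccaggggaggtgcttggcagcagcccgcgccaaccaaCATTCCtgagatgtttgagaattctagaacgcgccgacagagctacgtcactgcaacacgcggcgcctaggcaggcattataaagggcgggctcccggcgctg
A match in a window is a description of its letters and not evidence of a bound site. Ccn1, Ankrd1 and Amotl2 are known readouts of TEAD, so their matches are no independent result.

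**Figure D1:**
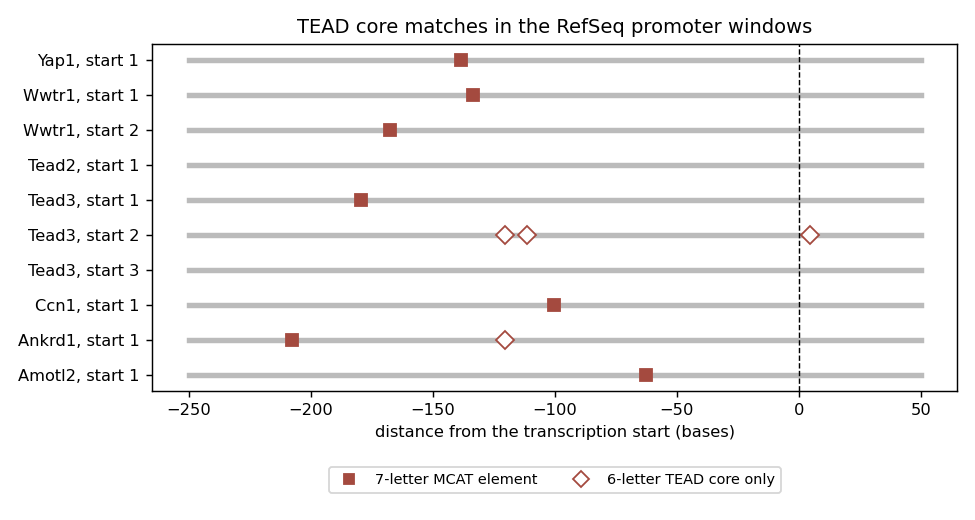
Positions of the TEAD core in the RefSeq promoter windows of 7 genes (one line per start site), as distance in bases from the transcription start. Filled squares are cores within the 7-letter MCAT element and open diamonds are other cores; the 1 Tead2 window and the third Tead3 window hold none.

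Total counts were 47908926 to 74697397 per library, and each of the 10 genes had at least 778 counts in every library. The muscle identity of the cells was visible in the marker list (Myod1, Myf5, Pax7, Des, Myog, Mymk, Myh3 and Ckm), whose summed level was 1066 and 1074 CPM (counts scaled to library size with TMM factors) at day 0 and 4916 to 5229 CPM at day 4. The summed level of 5 proliferation markers was 1549 and 1573 CPM at day 0, then 509 and 446 with DMSO and 551 and 561 under 4-PBA. Markers of other cell types were low in every library: the 4 endothelial markers summed to at most 2.58 CPM, the 4 macrophage and leukocyte markers to 6.11 (5.47 of it Cd68), the 4 adipocyte markers to 0.165 and the 4 osteoblast markers to 0.456, with Ptprc, Cidec, Lep and Ibsp at 3 counts or fewer in every library. Exons of Yap1, Tead2 and Ccn2 overlap, per GENCODE M21, exons of an antisense neighbour (Gm20416, Cd37 and Gm15270), and the strand setting of the counting is not given in the sources used here; those partners had at most 1, 26 and 154 counts in a library. In these bulk libraries, fewer cells of a type and less RNA per cell cannot be told apart.

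Scaled by length (CPM per kilobase of the longest coding transcript), Ankrd1, Ccn1 and Ccn2 stood above the coactivators and TEAD genes in every group, while Amotl2 lay below Wwtr1. At day 0 the order was Ankrd1 (493 ± 5.93, mean and SD of 2 libraries), Ccn1 (157 ± 0.938), Ccn2 (71.6 ± 0.676), Wwtr1 (35.9 ± 0.152), Yap1 (28.2 ± 0.0481), Amotl2 (27.9 ± 0.711), Tead2 (20.8 ± 0.910), Tead1 (19.9 ± 0.289), Tead4 (15.8 ± 0.275) and Tead3 (5.66 ± 0.159). The libraries of Yap1 and Amotl2 overlapped. Both Tead2 libraries (21.5 and 20.2) lay above both Tead1 libraries (19.7 and 20.1), the nearest of them by little. With DMSO at day 4 the order was Ankrd1 (719 ± 7.13), Ccn2 (284 ± 40.3), Ccn1 (251 ± 23.6), Wwtr1 (56.7 ± 1.74), Amotl2 (39.3 ± 0.473), Tead1 (32.7 ± 0.235), Tead4 (30.4 ± 1.08), Tead2 (23.3 ± 0.107), Yap1 (23.2 ± 0.109) and Tead3 (19.0 ± 0.164), where Ccn2 and Ccn1, and Tead2 and Yap1, could not be separated. With the drug the order of the means was the same, and again Ccn2 and Ccn1 (293 ± 1.16 and 274 ± 32.6) and Tead2 and Yap1 (24.9 ± 0.792 and 24.4 ± 0.713) overlapped. On this scale Yap1 went from the fifth place at day 0 to the ninth at day 4. The places depend on the length used, most of all for Tead1. Its longest transcript has 9964 bases and its longest coding sequence 1308, against 4171 and 1464 for Yap1.

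**Figure D2:**
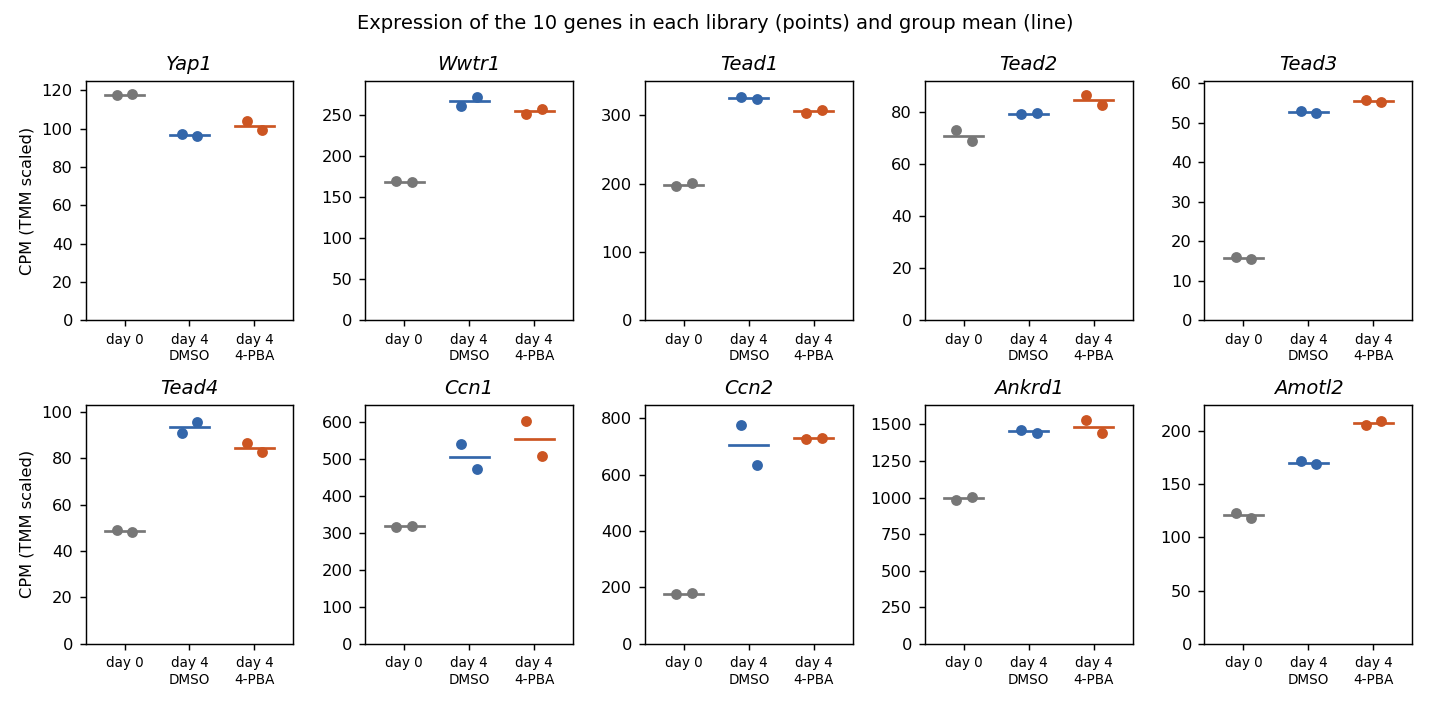
TMM-scaled CPM of the 10 genes (vertical axis, from 0) in each library (points) with the mean of each group (line). Yap1 is the one gene whose day 4 libraries lie below day 0, and Amotl2 the one with a clear step from DMSO to 4-PBA (170 to 207 CPM).

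The vehicle libraries of day 4 were set against day 0 to ask how the system changed as the myoblasts differentiated without the drug. All 10 genes passed the test, 9 higher and 1 lower at day 4, beside 66.3% of all tested genes (33.8% higher and 32.6% lower). The median log2 fold change of the 10 genes was 0.67, against 0.023 over all genes tested. Of the 10, 2 changed at least 2-fold (Ccn2 and Tead3), beside 21.9% of all tested genes. The groups did not overlap for any of the 10, nor did they for 81.9% of all tested genes. Groups that do not overlap, as given below gene by gene, are thus common in this comparison. Adjusted p-values are from edgeR's quasi-likelihood test, corrected by the Benjamini-Hochberg method across the whole table.

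The coactivator genes moved apart. Yap1 stood at 117.6 and 117.9 CPM at day 0, then 97.1 and 96.4 with DMSO and 103.8 and 99.6 under 4-PBA. All 4 day 4 libraries lay below both day 0 libraries, and the fall with DMSO was 0.28 on the log2 scale (SE 0.0368, adjusted p = 2.16e-08). Wwtr1, which encodes TAZ, stood at 169 and 168 CPM at day 0, then 261 and 272 with DMSO and 251 and 258 under 4-PBA. It rose with DMSO by a log2 fold change of 0.66 (SE 0.0322, adjusted p = 2.33e-19), and no day 4 library overlapped day 0. The ratio of Wwtr1 to Yap1, per length of transcript, was therefore 1.28 and 1.27 at day 0, then 2.38 and 2.51 with DMSO and 2.15 and 2.30 under 4-PBA. Wwtr1 was the more abundant of the pair in every library.

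The 4 TEAD genes, which encode closely related DNA-binding factors, each rose by a different amount. Tead3 went from 16.0 and 15.4 CPM at day 0 to 53.1 and 52.5 with DMSO (3.37-fold, 1.75 on the log2 scale, SE 0.0546, adjusted p = 4.34e-25), and stood at 55.7 and 55.2 with 4-PBA. It was the least abundant of the 4 at day 0 and still the least abundant per length at day 4. Tead4, known for its expression in differentiating muscle, went from 49.3 and 48.1 to 91.2 and 95.9 CPM (1.92-fold, log2 fold change 0.94, SE 0.0433, adjusted p = 4.10e-20), with 86.6 and 82.6 in the 4-PBA libraries.

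Tead1, the broadly expressed member of the family, went from 196 and 200 CPM to 327 and 324 with DMSO (1.64-fold, 0.71 on the log2 scale, SE 0.0305, adjusted p = 4.85e-21), and stood at 304 and 308 with 4-PBA. Tead2 differed least, with 72.9 and 68.5 CPM at day 0, then 78.9 and 79.5 with DMSO and 86.5 and 82.7 under 4-PBA. Its rise with DMSO (0.17 on the log2 scale, SE 0.0423, adjusted p = 8.57e-04) rested on the day 0 libraries: without day 0 replicate 2 the log2 fold change was 0.12 and the adjusted p was 0.0512. Whenever a library is left out, its group has 1 library, which the fit assumes to vary like the other groups. All 4 genes had both day 4 DMSO libraries above both day 0 libraries. The groups did not overlap, in either direction, for 81.9% of all tested genes.

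Summed over the 4 genes, the TEAD level was 63.0 and 61.5 CPM per kilobase at day 0, then 104.9 and 106.0 with DMSO and 104.1 and 102.0 under 4-PBA. Within this sum the share of Tead3 went from 9.09% ± 0.101 (SD, n = 2) at day 0 to 18.1% ± 0.290 with DMSO, while that of Tead2 went from 33.5% ± 0.895 to 22.1% ± 0.0637. The shares of Tead1 (32.0% ± 1.01 and 31.0% ± 0.454) and Tead4 (25.4% ± 0.0103 and 28.8% ± 0.809) differed less. With 4-PBA the shares were 29.8% ± 0.732 for Tead1, 24.2% ± 0.412 for Tead2, 19.4% ± 0.160 for Tead3 and 26.7% ± 0.480 for Tead4. These shares describe the libraries and were not tested; which gene has the largest share depends on the length used, since the longest Tead1 transcript has 9964 bases and the other 3 have 2775 to 3396.

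**Figure D3:**
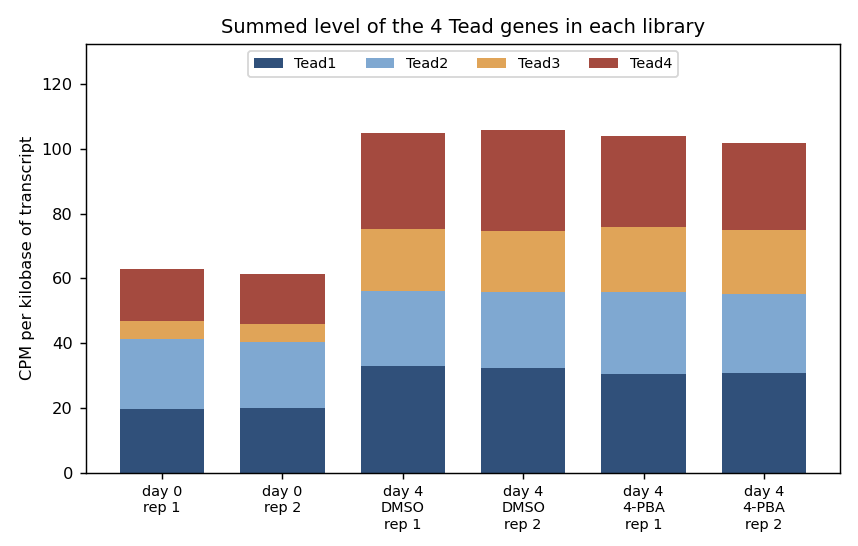
Level of each Tead gene in CPM per kilobase of its longest coding transcript, stacked for each of the 6 libraries. The summed level is 61.5 to 63.0 at day 0 and 102.0 to 106.0 at day 4, and the Tead3 layer is thicker in every day 4 library than at day 0.

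All 4 target genes were higher at day 4 than at day 0. Ccn2 changed most, from 177 and 179.5 CPM at day 0 to 778 and 637 with DMSO and 727 and 731 under 4-PBA. The day 4 libraries did not overlap day 0, and the rise with DMSO was 3.97-fold (log2 fold change 1.99, SE 0.121, 95% interval 1.62 to 2.36, adjusted p = 6.52e-04). Ccn1 stood at 316 and 319 CPM at day 0, then 539 and 472 with DMSO and 601 and 508 under 4-PBA, a rise with DMSO of 1.59-fold (log2 fold change 0.67, SE 0.124, 95% interval 0.29 to 1.05, adjusted p = 0.0171). The call of Ccn1 was lost without day 0 replicate 1, without day 0 replicate 2 or without DMSO replicate 1, with adjusted p-values of at most 0.0949 and log2 fold changes from 0.57 to 0.77 over the 6 libraries left out in turn. Ccn1 and Ccn2 had wider intervals than the other 8 genes, because the fit gave their own replicate spread nearly all the weight (3.20 and 3.22 degrees of freedom in all, against 33.4 for the others).

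Ankrd1, the most abundant of the 10, stood at 986 and 1003 CPM at day 0, then 1463 and 1443 with DMSO and 1530 and 1442 under 4-PBA, a 1.46-fold rise with DMSO (0.55 on the log2 scale, SE 0.0285, adjusted p = 1.69e-18). Amotl2 stood at 123 and 119 CPM at day 0, then 172 and 169 with DMSO and 205 and 209.6 under 4-PBA, a 1.41-fold rise with DMSO (0.49 on the log2 scale, SE 0.0337, adjusted p = 3.08e-15). Neither gene had a day 4 library within the range of day 0.

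The comparison of 4-PBA with day 0 shares the day 0 libraries with the one above, so its values are given side by side and not as further support. Again all 10 genes passed the test, 9 higher and 1 lower, beside 65.6% of all tested genes (33.2% higher and 32.4% lower). The groups did not overlap for any of the 10, nor for 81.8% of all tested genes, and 2 of the 10 (Tead3 and Ccn2) changed at least 2-fold, beside 21.2%. The log2 fold changes against day 0 with 4-PBA and with DMSO were -0.21 and -0.28 for Yap1, 0.59 and 0.66 for Wwtr1, 0.62 and 0.71 for Tead1, 0.26 and 0.17 for Tead2, and 1.82 and 1.75 for Tead3. They were 0.80 and 0.94 for Tead4, 0.80 and 0.67 for Ccn1, 2.03 and 1.99 for Ccn2, 0.58 and 0.55 for Ankrd1, and 0.78 and 0.49 for Amotl2. With 4-PBA, too, Ccn1 lost its call when either day 0 library was left out, with an adjusted p of at most 0.0697.

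**Figure D4:**
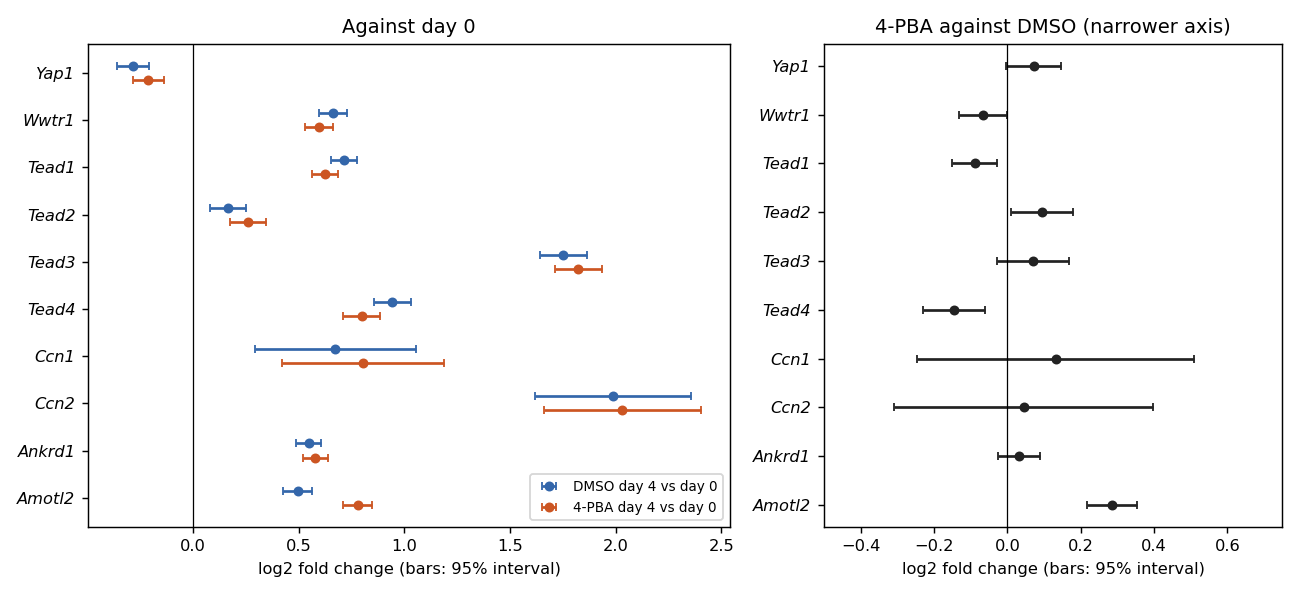
Log2 fold changes with 95% intervals for the 10 genes: against day 0 on the left (DMSO in blue, 4-PBA in orange) and 4-PBA against DMSO at day 4 on the right, on a narrower axis. On the right, Amotl2 (0.29) lies furthest from 0 and Ccn1 and Ccn2 have the widest intervals.

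Set against the vehicle at day 4, the drug itself was the variable. Amotl2 was higher and Tead4 lower with 4-PBA, 2 of the 10 genes, beside 4.9% of all tested genes (2.13% higher and 2.78% lower). The median log2 fold change was 0.057 for the 10 genes and 0.0021 over all genes tested. The groups did not overlap for 7 of the 10 genes and for 45.5% of all tested genes. None of the 10 passed with a change of at least 2-fold, as 0.0688% of all tested genes did.

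Amotl2 stood at 205 and 209.6 CPM with 4-PBA against 172 and 169 with DMSO. Both 4-PBA libraries lay above both DMSO libraries, a rise of 21.9% (log2 fold change 0.29, SE 0.0331, 95% interval 0.22 to 0.35, adjusted p = 6.70e-07). It passed the test under all 14 alternative settings, including with each library left out, with log2 fold changes between 0.27 and 0.30. Tead4 fell by 9.58% with 4-PBA (86.6 and 82.6 against 91.2 and 95.9 CPM, log2 fold change -0.15, SE 0.0417, 95% interval -0.23 to -0.061, adjusted p = 0.0337). This call was lost in 8 of the 14 alternatives, among them the replicate block (adjusted p = 0.0537), and whenever either day 0 library, DMSO replicate 2 or either 4-PBA library was left out, with adjusted p-values over the alternatives from 0.00414 to 0.394.

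The other 8 genes were not called, and their intervals bound the differences that these libraries allow. On the log2 scale the 4-PBA to DMSO difference was 0.072 for Yap1 (95% interval -0.0032 to 0.15, adjusted p = 0.330), -0.067 for Wwtr1 (-0.13 to -0.0019, adjusted p = 0.281), -0.090 for Tead1 (-0.15 to -0.028, adjusted p = 0.0806), 0.095 for Tead2 (0.0096 to 0.18, adjusted p = 0.228) and 0.071 for Tead3 (-0.028 to 0.17, adjusted p = 0.518). The stricter filter and limma-voom called Tead1, with adjusted p-values down to 0.0460. For the other target genes the difference was 0.032 for Ankrd1 (-0.026 to 0.090, adjusted p = 0.644), 0.13 for Ccn1 (-0.25 to 0.51, adjusted p = 0.727) and 0.044 for Ccn2 (-0.31 to 0.40, adjusted p = 0.918).

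The values of Ccn1 and Ccn2 depended on the library. DMSO replicate 1 was above replicate 2 for both genes, while the 4-PBA replicates differed in Ccn1 and were nearly equal in Ccn2. For Ccn2 the log2 difference was 0.20 without DMSO replicate 1 (adjusted p = 1.39e-07) and -0.093 without DMSO replicate 2 (adjusted p = 0.0345), so the direction depended on which DMSO library was kept. Each of these p-values sets the 4-PBA libraries against a single DMSO library and takes the spread from the other groups, so it carries nothing of the difference between the DMSO replicates. For Ccn1 it lay between 0.0062 without 4-PBA replicate 1 and 0.25 without 4-PBA replicate 2. Ankrd1 also changed sign, to -0.011, without 4-PBA replicate 1. Of the proliferation markers, Pcna (log2 fold change 0.18, adjusted p = 0.00117) and Mcm7 (0.28, adjusted p = 1.92e-05) were higher with 4-PBA by edgeR, and the other 3 of 5 were not called. All 5 had both 4-PBA libraries above both DMSO libraries, while the groups did not overlap, in either direction, for 45.5% of all tested genes. Of the 8 muscle markers 2 were lower and 6 not called. Beside these counts, 4.9% of all tested genes were called. The part of these markers in the differences of the 10 genes was not tested.

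The rest of the pathway was described through 6 lists of 63 genes, of which 60 were tested. With DMSO against day 0, 52 of them passed the test (33 higher and 19 lower), beside 66.3% of all tested genes. In the Hippo kinase list (17 genes, the MST, LATS, MAP4K and TAO kinases and their partners) 5 were higher, 8 lower and 4 not called, with a median log2 fold change of -0.10. Taok1, a kinase upstream of MST, rose from 192 ± 0.237 to 333 ± 17.8 CPM (0.80 as a log2 fold change, SE 0.0331), and the MAP4K relatives Tnik (1.33, SE 0.0907) and Map4k4 (0.38, SE 0.0289) rose too. The MST genes Stk3 (-0.079) and Stk4 (-0.089) were not called, Lats1 was lower (-0.15) and Lats2 higher (0.57). Their partners Sav1 (-0.36), Mob1a (-0.32) and Mob1b (-0.10) were lower, the last losing its call in 8 of 14 alternatives. Of the 13 tested upstream and cytoplasmic regulators 8 were higher and 4 lower. The FERM protein gene Frmd6 rose from 144 ± 0.275 to 266 ± 15.5 CPM (0.88, SE 0.0354) and Tjp1, which encodes the junction protein ZO-1, from 152 ± 2.35 to 255 ± 9.05 CPM (0.74, SE 0.0331). Wwc1, which encodes the Hippo scaffold KIBRA, fell from 11.4 ± 0.165 to 1.23 ± 0.282 CPM (-3.20, SE 0.162). For Taok1, Tnik, Map4k4, Frmd6, Tjp1 and Wwc1 edgeR's adjusted p was 3.56e-21 at the lowest and 5.83e-14 at the highest.

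Among relatives of the 10 genes, 6 of 7 tested were higher with DMSO and 1, Ccn5, lower. Beside this and the list counts below, 33.8% of all tested genes were higher and 32.6% lower. Ccn4 rose from 201.0 ± 0.0544 to 435 ± 5.04 CPM (1.11 as a log2 fold change, SE 0.0299, adjusted p = 5.21e-27), Ccn3 from 6.31 ± 0.469 to 47.9 ± 4.71 CPM (2.93, SE 0.0726, adjusted p = 7.65e-26), and the angiomotin gene Amotl1 from 147 ± 3.87 to 247 ± 3.81 CPM (0.75, SE 0.0323, adjusted p = 7.40e-21). Ankrd2 and Ankrd23, the muscle ankyrin repeat genes related to Ankrd1, had larger log2 fold changes than Ankrd1 itself, 7.16 (adjusted p = 5.66e-06) and 3.35 (adjusted p = 4.99e-17). They started near the floor, at means of 0.529 and 0.686 CPM at day 0, and reached 73.7 and 6.85 CPM with DMSO. Ankrd1 went from 995 to 1453 CPM. The VGLL cofactors, which bind TEAD in place of YAP, differed among themselves: Vgll3 rose from 41.9 ± 1.94 to 152.9 ± 0.343 CPM (1.87, SE 0.0388, adjusted p = 2.79e-30), Vgll2 fell by 0.27 on the log2 scale (SE 0.0554, adjusted p = 4.84e-05) and Vgll4 was not called (-0.036, SE 0.0550, adjusted p = 0.587). Of 18 other YAP/TAZ target genes 10 were higher, 6 lower and 2 not called, with a median of 0.25. Ccdc80, which encodes a matrix protein, had the smallest adjusted p (74.9 ± 1.18 to 388 ± 1.85 CPM, 2.37, SE 0.0322, adjusted p = 9.96e-36), followed by the ligand gene Tgfb2 (1.37, SE 0.0580) and Rbms3 (1.10, SE 0.0488). The other targets therefore did not share the direction of Ccn1, Ccn2, Ankrd1 and Amotl2 as a block. All 4 muscle genes known for MCAT elements or TEAD control were higher: Acta1 (skeletal alpha-actin, 5.50, SE 0.0354), Myog (myogenin, 5.19, SE 0.0460), Myh7 (slow myosin heavy chain, 6.10, SE 0.104) and Tnnt2 (cardiac troponin T, 3.39). Myh7 too started near the floor, at a mean of 0.685 CPM at day 0.

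**Figure D5:**
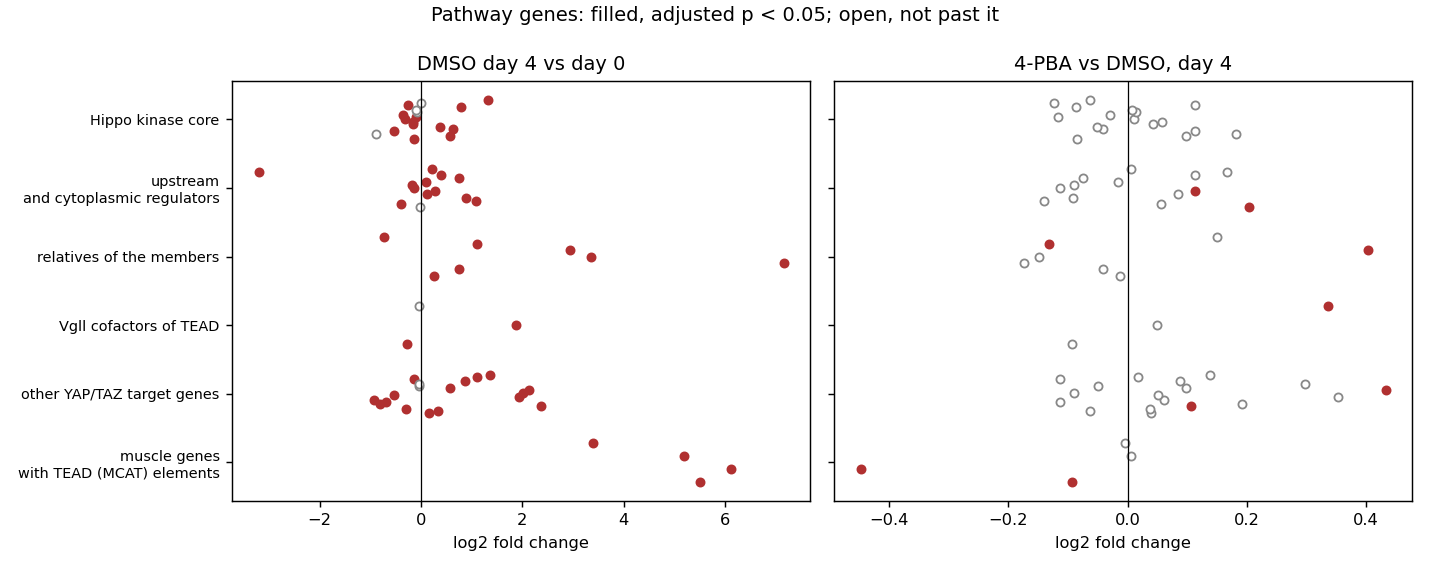
Log2 fold changes of the tested genes of the 6 pathway lists, with DMSO against day 0 on the left and 4-PBA against DMSO at day 4 on the right on a narrower axis. Filled points passed an adjusted p of 0.05; on the right 9 of 60 genes did, and no gene of the Hippo kinase list. Lats2 and Ptpn14 are in 2 lists and are drawn in both.

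Between 4-PBA and DMSO, 9 of the 60 pathway genes were called (6 higher and 3 lower), beside 4.9% of all tested genes. Leaving out DMSO replicate 1 gave 15 calls, and leaving out 4-PBA replicate 1 or 2 gave 4 or 3. None of the 17 Hippo kinase genes was called by edgeR, nor by DESeq2 or limma-voom. The 4-PBA and DMSO libraries did not overlap for 10 of the 17, nor for 45.5% of all tested genes. Taok1 and Taok2 were called without DMSO replicate 1. Vgll4, whose protein competes with YAP for TEAD, was at 41.1 and 43.1 CPM with 4-PBA and at 32.5 and 34.1 with DMSO (0.34 on the log2 scale, SE 0.0541, adjusted p = 1.04e-04). Ccn3 was at 62.8 and 63.7 CPM against 51.3 and 44.6 (0.40, SE 0.0565, adjusted p = 2.33e-05), and Myh7 was lower, at 33.1 and 35.9 CPM against 47.6 and 46.6 (-0.45, SE 0.0590, adjusted p = 6.07e-06). These 3 genes kept their calls under all 14 alternatives. Against day 0, 57 of the 60 passed the test with 4-PBA, 36 higher and 21 lower, beside 65.6% of all tested genes.

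The other 6 called genes depended on the setting. Ccn4 was lower with 4-PBA (397 ± 4.54 against 435 ± 5.04 CPM, log2 fold change -0.13, adjusted p = 0.00467) and was not called without either 4-PBA library. Ajuba, which encodes a LIM protein that binds LATS, was higher (60.5 ± 1.84 against 52.6 ± 3.40 CPM, 0.20, adjusted p = 0.00881) and was not called without DMSO replicate 2 or 4-PBA replicate 2. Nf2, which encodes the upstream Hippo regulator merlin, was higher (0.11, adjusted p = 0.0435), but lost its call in 8 of the 14 alternatives, and Acta1 was lower (-0.094, adjusted p = 0.0450) and lost it in 9. Among the other targets Igfbp3 (0.43, adjusted p = 0.0273) and Ccdc80 (0.11, adjusted p = 0.0282) were higher, and each lost its call in 5, in both cases when either 4-PBA library was left out.

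The genes whose pattern over the 6 libraries was most like each of the 10 were found by the Euclidean distance between log2 CPM values centred on each gene's mean, among 10671 other genes with a mean of at least 5 CPM. The nearest gene was Cdc42se1 for Yap1 (distance 0.036, beside a median of 0.49 over all candidates), Map4k3 for Wwtr1 (0.051, median 0.87), Fads3 for Tead1 (0.033, median 0.91), Rsf1 for Tead2 (0.037, median 0.54), Ttc28 for Tead3 (0.083, median 2.13) and Mical3 for Tead4 (0.068, median 1.12). For the targets it was Nr4a1 for Ccn1 (0.11, median 1.00), Col8a1 for Ccn2 (0.15, median 2.39), the matrix proteoglycan gene Vcan for Ankrd1 (0.031, median 0.80) and Sox4 for Amotl2 (0.099, median 0.92). The second nearest were Taf1, Atf6, Mettl22, Lrrc28, Iglon5 and Pde4dip for the coactivators and TEAD genes in the same order, and Syt12, Nuak1, Selenok and Megf9 for the targets. Sox4, like Amotl2, was higher with DMSO than at day 0 and higher again with 4-PBA, at 159 and 156 CPM at day 0, then 234 and 233 with DMSO and 262 and 273 under 4-PBA. The distances rest on 6 libraries in 3 groups. Each nearest gene was picked as the smallest of 10671 distances, so it lies below the median by the choice itself.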

How the data were processed

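The deposited values are raw counts per gene symbol, with 1 column per library, per the file headers; none of the columns belonged to another sample. The genome build named in the submitters' processing notes is GRCm39; the aligner, the counting tool, the annotation and the strand setting are not given in the sources used here. Libraries were made from DNase-treated total RNA with a directional kit, per the labels' protocols.

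Genes were kept with filterByExpr, scaled with TMM and fitted over all 6 libraries with a mean per group in edgeR 4.0.16 (R 4.3.3; robust glmQLFit, quasi-likelihood F test, Benjamini-Hochberg over 17433 genes, called at an adjusted p under 0.05). All libraries carried batch number 1. SEs are the log2 fold change divided by the square root of F; 95% intervals use the fit's degrees of freedom. With 2 libraries against 2, an exact permutation test cannot go below p = 0.333, so the calls rest on a spread shared across genes. Replicates differed by more than sampling noise (chi-square per degree of freedom 3.77 to 6.64). A simulation drew counts with the spread that the fit gives to genes of like abundance, from the same baseline in all groups. The changed genes, 50 at each fold, were taken from those expected above 50 counts in the smallest library. Between 4-PBA and DMSO (16942 tested), the test called 40 genes changed 1.25-fold, 45 changed 1.5-fold, 48 changed 2-fold and 50 changed 4-fold. There were 10 false calls. These rates do not cover genes with a wider spread, such as Ccn1 and Ccn2.

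Lengths come from GENCODE M21 and promoter windows from RefSeq (GRCm38.p6). The 10 genes and the lists were chosen with earlier results of these data known. Named genes were the 10, in each list and comparison the 3 with the lowest adjusted p, and the 2 nearest in pattern. Other list genes were named after their values were seen. Alternatives were other scalings, filters, the DESeq2 1.42.0 Wald test, limma-voom (limma 3.58.1), fits of 4 libraries, a replicate block, stricter thresholds, coding length, and each library left out. Figures used matplotlib 3.10.9.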

Additional observations from a re-analysis of the deposited data

How the results depend on the processing

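Of the 30 log2 fold changes (10 genes in 3 comparisons), 24 kept their side of the threshold under all 14 alternatives; of these 24, Ankrd1 between 4-PBA and DMSO, never called, changed sign to -0.011 without 4-PBA replicate 1. The exceptions were Tead2 and Ccn1 with DMSO, Ccn1 with 4-PBA against day 0, and Tead1, Tead4 and Ccn2 between 4-PBA and DMSO, the last reversed to -0.093 without DMSO replicate 2 and called at 0.20 without DMSO replicate 1; the cause was not tested. The number of the 10 genes called between 4-PBA and DMSO, 2, was 1 with library size only, the DESeq2 Wald test, the replicate block or an adjusted p under 0.01, 3 with the filter of 10 counts and 1 CPM or with limma-voom, which added Tead1, and 0 with an added minimum change of 2-fold; it was 1 to 3 with a library left out. In each comparison with day 0 the count, 10, was 2 with the 2-fold minimum; with a library left out it was 8 to 10 for DMSO and 9 to 10 for 4-PBA. For the 60 pathway genes the count with a library left out was 3 to 15 between 4-PBA and DMSO. Replicate numbers did not pair the libraries (correlations of same-numbered deviations 0.046, -0.085 and -0.088), and the block moved the count of all calls between 4-PBA and DMSO from 855 to 768. Leaving out 4-PBA replicate 1 or 2 moved it to 341 or 295, and library size only moved its split to 461 higher and 435 lower, from 371 and 484.

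With coding length in place of transcript length, the shares of Tead1, Tead2, Tead3 and Tead4 at day 0 were 59.7%, 20.9%, 4.43% and 15.0%. With DMSO they were 59.4%, 14.2%, 9.03% and 17.4%, under 4-PBA 58.0%, 15.7%, 9.86% and 16.4%, and the log2 ratio of Wwtr1 to Yap1 was 0.63, 1.57 and 1.43 (0.35, 1.29 and 1.15 by transcript length). The size of the shares thus depends on the length. Each gene has the same length in every library, so the change in the log2 ratio is the same with either length. The share of Tead2, which rose least of the 4, falls with any lengths, and that of Tead3, which rose most, rises. Their directions between day 0 and day 4 are therefore no test of the choice of length.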

Other observations

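The TEAD core was also counted in the promoter windows of the other lists, for genes with a window, beside 16.6% of all genes. It was present in 3 of 4 muscle genes known for MCAT elements (Tnnt2, Acta1 and Myh7), in 3 of 4 Vgll genes (Vgll1, Vgll3 and Vgll4), in 3 of 14 Hippo kinase genes (Sav1, Lats2 and Mob1a), in 4 of 11 upstream regulators (Wwc2, Ptpn14, Ajuba and Wtip), in 4 of 12 other YAP/TAZ target genes (Lats2, Axl, Crim1 and Ptpn14) and in 1 of 5 relatives (Ankrd23). It was in none of the 5 proliferation, 6 muscle, 2 endothelial, 2 macrophage and 3 osteoblast markers with a window, and in 1 of 4 adipocyte markers. The AP-1 site TGANTCA, which reads the same on both strands, was in none of the 7 windowed genes of the YAP/TAZ and TEAD set, beside 8.97% of all genes. These counts describe letters in short windows, and the lists are small. The muscle genes were listed for MCAT elements, which contain the core, or for TEAD control. The target genes were listed as targets of YAP/TAZ. The counts of these lists are therefore no test of the core.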
